A study of Homo sapiens with 32 samples.

Results

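ATP-citrate lyase (ACLY) knockout THP-1 cells were compared with cells carrying the wild type (WT) enzyme after both had received lipopolysaccharide (LPS). The comparison took 8 of the 32 libraries of the series, the 4 labelled KO LPS and the 4 labelled WT LPS, and 12406 of the 60107 genes listed, namely those with a mean normalised read count of at least 10 over all 32 libraries. THP-1 is a human monocytic leukaemia line. The KO cells lacked ACLY, and the WT cells were these same knockout cells after a lentiviral vector had returned wild type ACLY to them under puromycin selection. The series also held H760A cells, which received a catalytically inactive ACLY in the same way, and S455A cells, whose ACLY lacks a phosphorylation site. Per the labels LPS was given at 100 ng/ml for 3 h, and the unstimulated libraries of each line received none. Whether the KO cells went through a transduction of their own is not stated in the sources used here. Each genotype was 1 line, so a difference between the lines other than ACLY cannot be told apart from the genotype. The labels do not say whether the 4 libraries of a group came from separate cultures. The p-values measure only the spread between libraries of a group, pooled in the main fit over the 8 groups of the series, and this spread may be technical.

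ACLY splits cytosolic citrate into oxaloacetate and acetyl-CoA, the building block of fatty acids and sterols and the donor of acetyl groups for histones. LPS is a cell wall component of Gram-negative bacteria that is sensed by TLR4 on monocytes. A branch below TLR4 runs through MyD88 to NF-kB and AP-1 and turns on cytokine genes, and another runs through TRIF and IRF3 to interferon genes. Secreted interferons act back on the cells through JAK kinases and STAT and IRF factors, which turn on antiviral and antigen presentation genes.

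The 8 libraries held 6504099 to 13002790 reads on genes, and 16510 to 18413 genes were detected in each. Reads were counted at the 3′ ends of transcripts, so that counts did not depend on transcript length. All 10 monocytic markers checked were detected in both lines after LPS, and of these LYZ was higher and CD33 was lower in KO. Their summed counts were 12803 to 15786 in WT and 27159 to 44049 in KO, and LYZ made up much of the KO sums. The median log2 fold change of the 10 markers was 0.31, with 7 higher and 3 lower in KO. No marker of T cells, erythroid cells, platelets, epithelium or fibroblasts reached the count minimum. Of 4 B cell and 4 NK cell markers 1 each did, with summed counts of 41.3 to 63.0 in WT and 6.01 to 46.9 in KO for the B cell list and of 123 to 208 and 209 to 327 for the NK cell list, and neither was called. Transcripts of ribosomal proteins took 9.93 to 11.9% of the reads in KO LPS libraries and 13.6 to 15.7% in WT LPS libraries, without overlap, and mitochondrially encoded transcripts took 5.43 to 8.02% and 3.51 to 6.11%. The ribosomal share moved with genotype, while the ranges of the mitochondrial share overlapped. Without LPS the mitochondrial share was 3.32 to 6.94% in KO and 3.42 to 6.62% in WT. The part of these shares in the results was not tested. Because the samples were bulk cultures, fewer cells of a kind and less RNA per cell cannot be told apart.

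ACLY mRNA itself had normalised read counts of 118, 98.5, 126 and 103 in WT LPS replicates 1 to 4 and of 69.8, 101, 79 and 61.2 in KO LPS replicates 1 to 4, and all counts below are given in this order. The groups overlapped, and the difference was not called (log2 fold change -0.53, SE 0.28, adjusted p = 0.357). A count at the 3′ end of the transcript need not read the edited part of the gene, so it does not check the knockout. The returned ACLY was cloned as a coding sequence, so its transcript need not carry the native 3′ end. The count therefore does not check the return of ACLY to the WT cells either.

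A gene was called when its Benjamini-Hochberg adjusted p from limma was below 0.01, and it is said to have risen or fallen when it was called higher or lower in KO than in WT after LPS. By this rule 430 genes were called (3.47% of those tested), of which 265 rose (2.14%) and 165 fell (1.33%). With the replicate number as a block, 1333 genes were called (10.7%), of which 776 were higher (6.26%) and 557 lower (4.49%), and 424 genes were called in both fits. On the scale as deposited, on which the median gene stood 0.11 lower in KO on the log2 scale, 222 genes were higher and 253 lower. The genes that rose were nearly all protein coding (261 of 265), and 202 of them rose by at least 1 on the log2 scale. Long non-coding RNAs made up 18 of the 165 that fell and 2 of the 265 that rose. The 4 KO libraries did not overlap the 4 WT libraries for 1729 genes (13.9%), of which 835 were higher (6.73%) and 894 lower (7.21%) in KO, and among them were 265 of the 265 genes that rose and 163 of the 165 that fell.

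Genes were called between the lines without LPS as well, 360 in all (2.9%). Of the genes that rose after LPS, 172 (64.9%) were also called higher in unstimulated KO than in unstimulated WT cells, where 1.8% of the genes tested were called higher. Of the genes that fell, 99 (60%) were also called lower without LPS, against 1.1% of the genes tested. These unstimulated libraries are separate from the 8 compared after LPS. The median size of the difference among the genes that rose was 1.38 after LPS and 1.21 without it on the log2 scale, and 1.13 and 0.99 among those that fell. The genes were chosen on the first value of each pair. When the effect of KO with LPS was tested directly against its effect without LPS, 1 gene was called (0.00806%). Of the 12406 genes tested, 175 had an unadjusted p below 0.05 in this limma contrast. That is a smaller share than a limit of 0.05 passes when no gene differs, so the contrast was conservative. With the replicate block limma also called 1 gene, but other adjusted p-values were lower. For example, CCL3L1 had an interaction of 1.36 (adjusted p = 0.0127 with the block), and DUSP5 one of 1.83 (adjusted p = 0.0786 with the block and 0.835 without it). A gene that was not called is not thereby shown to have the same KO effect in both states.

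**Figure D1:**
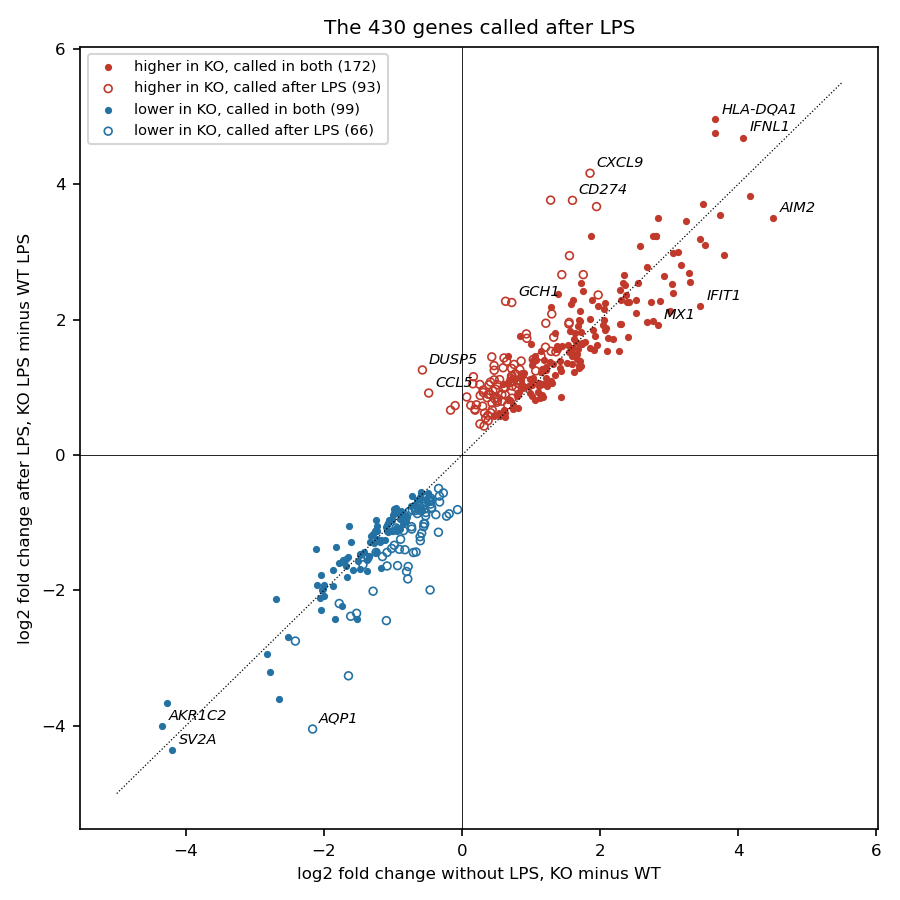
Log2 fold change of KO against WT without LPS (horizontal axis) and after LPS (vertical axis) for the 430 genes called after LPS, with filled points for those called in both states and open points for those called only after LPS; the dotted line marks equal change. Most points lie near the dotted line, with 172 of 265 higher and 99 of 165 lower genes filled, and CXCL9, CD274, GCH1, DUSP5 and CCL5 stand above it.

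Across 45 gene lists covering the pathways around LPS, interferon and ACLY, 755 members were tested. Of these 105 rose (13.9%, against 2.14% of all genes tested) and 12 fell (1.59%, against 1.33%). The lists were chosen with earlier results of these data known, so the shares are no independent support. The median log2 fold change of all genes tested was -0.01. Among lists with at least 3 members tested, those of CXCR3 ligands, guanylate-binding proteins and CC chemokines had the highest medians, and those of ribosomal proteins and of amino acid stress genes the lowest. A further 107 symbols on these lists did not reach the count minimum, and some of these are described beside their list.

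**Figure D2:**
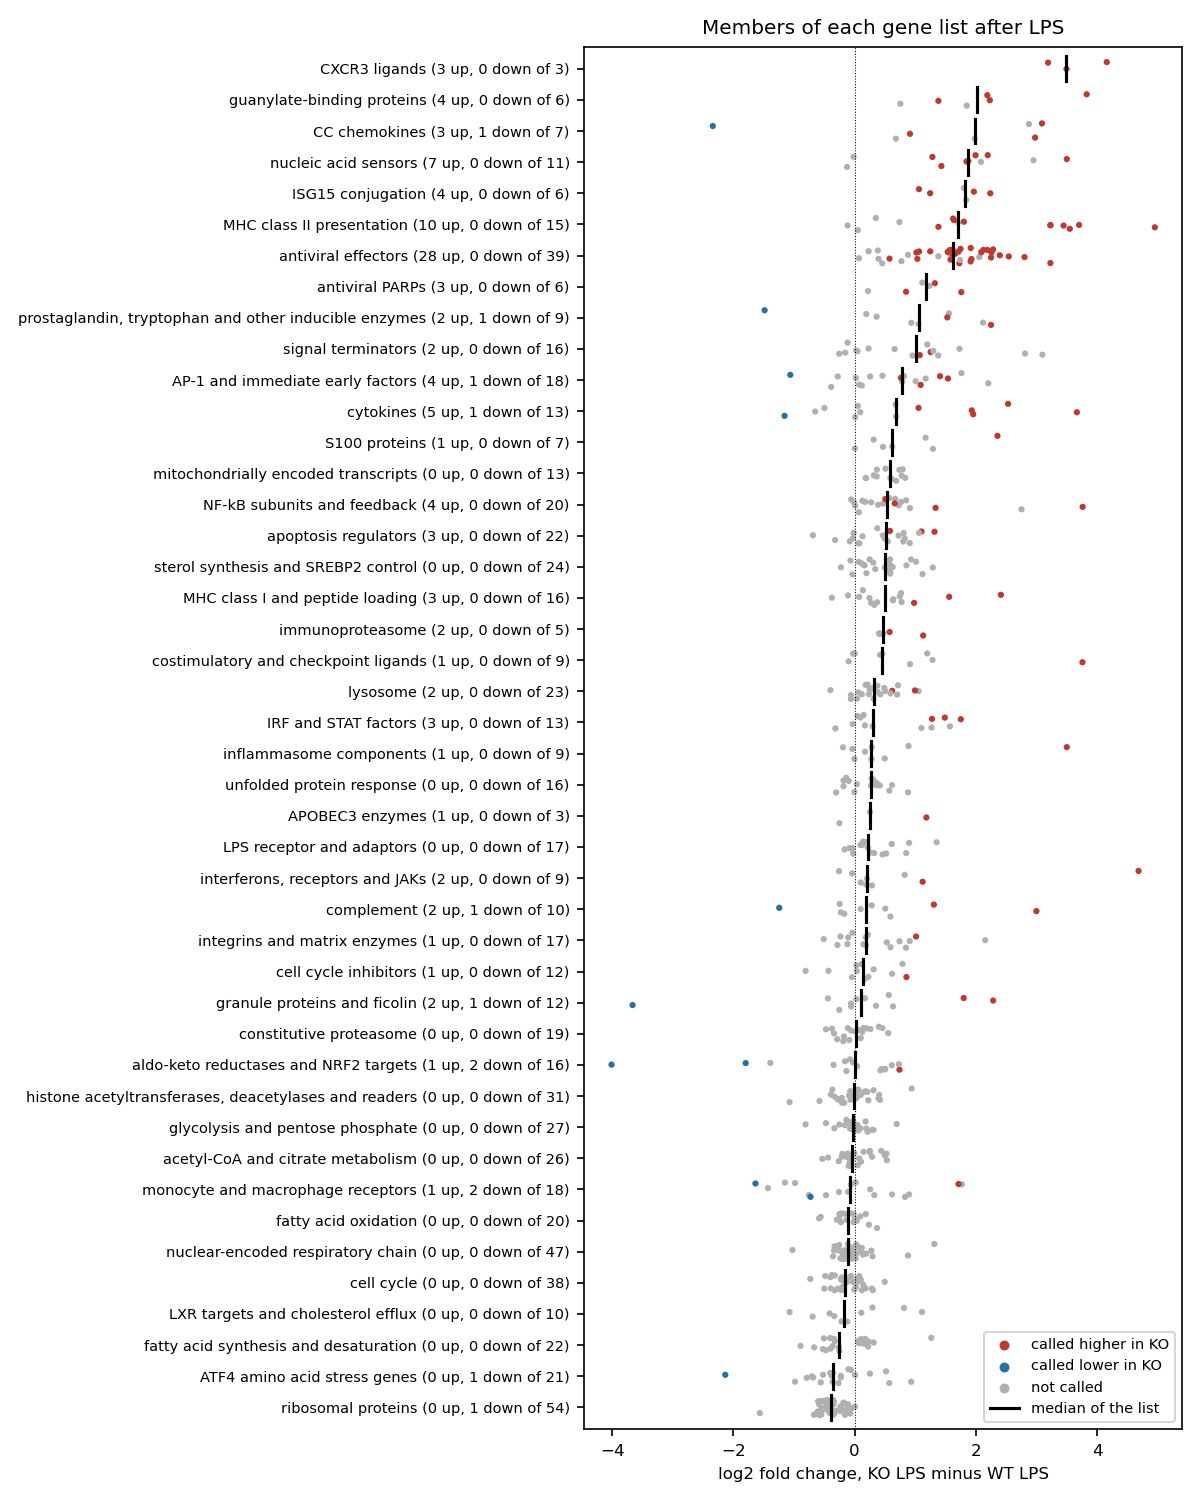
Log2 fold change of KO LPS against WT LPS (horizontal axis) for each member of the gene lists with at least 3 members tested (vertical axis), with red for genes called higher, blue for genes called lower, grey for genes not called and a black bar for the median of the list. Medians run from 3.50 for the CXCR3 ligands to -0.39 for the ribosomal proteins, and in the lists of acetyl-CoA, fatty acid, sterol and glycolysis genes every point is grey.

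None of the 17 tested genes of the LPS receptor and its adaptors was called by limma, 1 had an unadjusted p below 0.05, and 3 were called higher with the block. TLR4, the receptor itself, had counts of 10.6, 14.1, 20.2 and 8.84 in WT and 18, 7.24, 12.5 and 12.7 in KO, and the groups overlapped (log2 fold change -0.08, SE 0.66, adjusted p = 0.982). CD14, the co-receptor that hands LPS to TLR4, had 48.6, 59.8, 60.6 and 57.9 in WT and 40.9, 63.9, 63.9 and 87.4 in KO, again with overlap (log2 fold change 0.13, SE 0.26, adjusted p = 0.908). Without LPS it had been higher in KO, with counts between 244 and 319 against 58.1 to 96.5 (log2 fold change 1.66, adjusted p = 6.56e-05). The interaction of genotype and LPS was not called for CD14 (-1.53, adjusted p = 0.835).

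Among the interferon genes, IFNL1, which encodes a type III interferon, rose from near the detection limit (ENSG00000182393, chromosome 19, 39296407 to 39298673, plus strand, GRCh38). Its counts were 0, 5.28, 1.19 and 4.02 in WT and 83, 138, 38.9 and 64.3 in KO (log2 fold change 4.69, SE 0.73, adjusted p = 6.41e-05). Every KO library was above every WT library. It was higher in KO without LPS as well (log2 fold change 4.07, adjusted p = 4.70e-04). IFNB1, the interferon beta gene, did not reach the count minimum and was not tested. It had counts of 0, 1.76, 0 and 0 in WT and of 55.3, 84.4, 0 and 3.97 in KO, so that replicates 1 and 2 of KO stood apart from the other 6 libraries. JAK2, a kinase of cytokine receptors, rose as well (log2 fold change 1.12, SE 0.17, adjusted p = 2.87e-05). The remaining 7 tested members of the list of interferons, receptors and JAKs were not called.

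Of the sensors of foreign or misplaced nucleic acid, 7 of 11 tested members rose and none fell, with a median of 1.88. AIM2, which senses cytosolic DNA and starts an inflammasome (ENSG00000163568, chromosome 1, 159061599 to 159187843, minus strand), had counts of 19.7, 29.9, 44 and 25.7 in WT and of 484, 321, 311 and 259.7 in KO. All 4 KO libraries were above all 4 WT libraries (log2 fold change 3.50, SE 0.41, adjusted p = 9.61e-07). The RNA sensors IFIH1 (MDA5) and DDX58 (RIG-I) rose by 2.00 (adjusted p = 5.56e-07) and 1.88 (adjusted p = 4.85e-06), the endosomal RNA receptor TLR7 by 2.20 (adjusted p = 1.21e-04) and the DNA sensor CGAS by 1.43 (adjusted p = 3.42e-04). For CGAS the unstimulated difference was 0.61 and not called (adjusted p = 0.233).

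Of 13 tested IRF and STAT factors, which carry the interferon signal to the genome, 3 rose, none fell and the median was 0.30; with the block 6 were higher. IRF1, which is induced by interferons and NF-kB, had counts of 919.7, 1064, 1073 and 1132 in WT and of 2927, 4704, 4256 and 2625 in KO (log2 fold change 1.75, SE 0.17, adjusted p = 5.19e-08), and the groups did not overlap. IRF2, which can repress interferon genes, rose too (1.28, adjusted p = 1.84e-05). IRF7 was not called in the unblocked fit (1.57, adjusted p = 0.0179) and was called with the block (adjusted p = 3.25e-06).

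Antiviral effectors were the list with the most genes that rose, 28 of 39 tested, and none fell. All 39 members had higher means in KO, the list median was 1.62, and 36 were called with the block. IFIT2, which binds viral RNA, had counts of 409.7, 527, 723 and 522 in WT and of 6053, 5715, 5351 and 3449 in KO (log2 fold change 3.23, SE 0.31, adjusted p = 2.27e-08). TRIM22, a ubiquitin ligase that restricts retroviruses, rose by 2.54 (adjusted p = 4.69e-06) and RSAD2 (viperin), which makes a chain-terminating nucleotide, by 2.40 (adjusted p = 1.30e-05). The groups of 4 libraries did not overlap for any of these 3. Without LPS, 29 of the 39 were called higher in KO and the list median was 1.92. In this list LPS raised the WT cells by a median of 0.44 and the KO cells by a median of 0.29. IFIT1, for example, rose with LPS by 2.83 in WT and by 1.57 in KO, and its KO difference was 3.45 without LPS and 2.19 with it (interaction -1.26, adjusted p = 1, not called).

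Of the ubiquitin-like protein ISG15 and the enzymes that attach or remove it, 4 of 6 tested members rose, none fell and the median was 1.82. ISG15 had counts of 1914, 1538, 2070.2 and 1676 in WT and of 7113, 6928, 8062 and 6045 in KO (log2 fold change 1.97, SE 0.28, adjusted p = 1.70e-05), without overlap. HERC5, the ligase that attaches ISG15 to new proteins, rose by 2.24 (adjusted p = 1.46e-09) and UBE2L6, the conjugating enzyme, by 1.25 (adjusted p = 0.00894). Leaving out 1 library at a time ended the call of UBE2L6 in 8 of 8 (adjusted p up to 0.0377) cases. Of the 6 PARP family members and partners tested, PARP9, DTX3L and PARP14 rose, by 1.76 (adjusted p = 8.69e-05), 0.85 (adjusted p = 8.11e-04) and 1.33 (adjusted p = 5.65e-06). Of the guanylate-binding proteins, GTPases that attack pathogen vacuoles, 4 of 6 rose and the median was 2.02. GBP5 had counts of 135, 165, 184 and 143 in WT and of 854, 809, 909.8 and 465 in KO (log2 fold change 2.23, SE 0.33, adjusted p = 2.52e-05), and GBP4 rose by 2.19 (adjusted p = 1.19e-06).

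The promoters of several of these genes hold the interferon-stimulated response element, the sequence bound by a complex of STAT and IRF factors. Windows from 250 bases before to 50 bases after the start site were taken from RefSeq (GRCh38.p14) and searched on both strands for its core, GAAA followed by any 2 bases and another GAAA. The stretches below are examples from 6 genes that rose and from TRHDE and TNFSF14, which fell, all with values in the text. Matches in other genes, such as AIM2, HERC5 and PARP14, are not shown. The stretches are written 5′ to 3′ on the strand of the gene, with a match in capitals. Those of ISG15 and IFNL1 each hold a further, overlapping match that is not marked.
CXCL10, chr4:76023699-76023728, minus strand: tcatgttttgGAAAGTGAAAcctaattcac
CXCL9, chr4:76007661-76007690, minus strand: ccatttatgtGAAATGGAAAtaaaaacatg
IFNL1, chr19:39296183-39296212, plus strand: gttctaaggaTTTCAGTTTCtctttccttc
ISG15, chr1:1013374-1013403, plus strand: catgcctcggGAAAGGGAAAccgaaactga
DTX3L, chr3:122564322-122564351, plus strand: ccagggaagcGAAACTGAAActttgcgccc
HLA-F, chr6:29723268-29723297, plus strand: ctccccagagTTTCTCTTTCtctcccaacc
TRHDE, chr12:72272167-72272196, plus strand: agtggggggaGAAAGCGAAAgccctaactt
TNFSF14, chr19:6670112-6670141, minus strand: tgttgagcaaTTTCGGTTTCctctgaggtt
In IFNL1, HLA-F and TNFSF14 the capitals are the reverse complement of the searched letters. A second search used TTCNNNGAA, the GAS element bound by STAT dimers, a further search used a form of the NF-kB site, GGGA followed by any base and TTTCC, and the last used TCACNCCAC, a sterol regulatory element. Shown as examples are the GAS element in IRF1, which rose, and in SLC38A1, which fell, and the NF-kB site in TAP1, which rose.
IRF1, chr5:132490878-132490907, minus strand: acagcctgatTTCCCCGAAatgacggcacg
SLC38A1, chr12:46266682-46266711, minus strand: ttgtttcaccTTCTATGAAgcttccgttct
TAP1, chr6:32853757-32853786, minus strand: gcctgttcctGGGACTTTCCgagagccccg
Of all 27305 windows in the table, 3.65% held the interferon motif, 7.88% held the GAS element, 0.579% held the NF-kB site and 1.15% held the sterol element. Windows were found for 201 of the 265 genes that rose, of which 38 held the interferon motif, 20 the GAS element, 5 the NF-kB site and 2 the sterol element. The 201 are 75.8% of the genes that rose, which is under the 80% needed for a check over a set, so these shares were not read further. Of the 165 genes that fell 134 had a window, and 5, 8, 0 and 1 of these held the 4 motifs in this order. A match is a run of letters and does not show that a factor was bound.

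**Figure D3:**
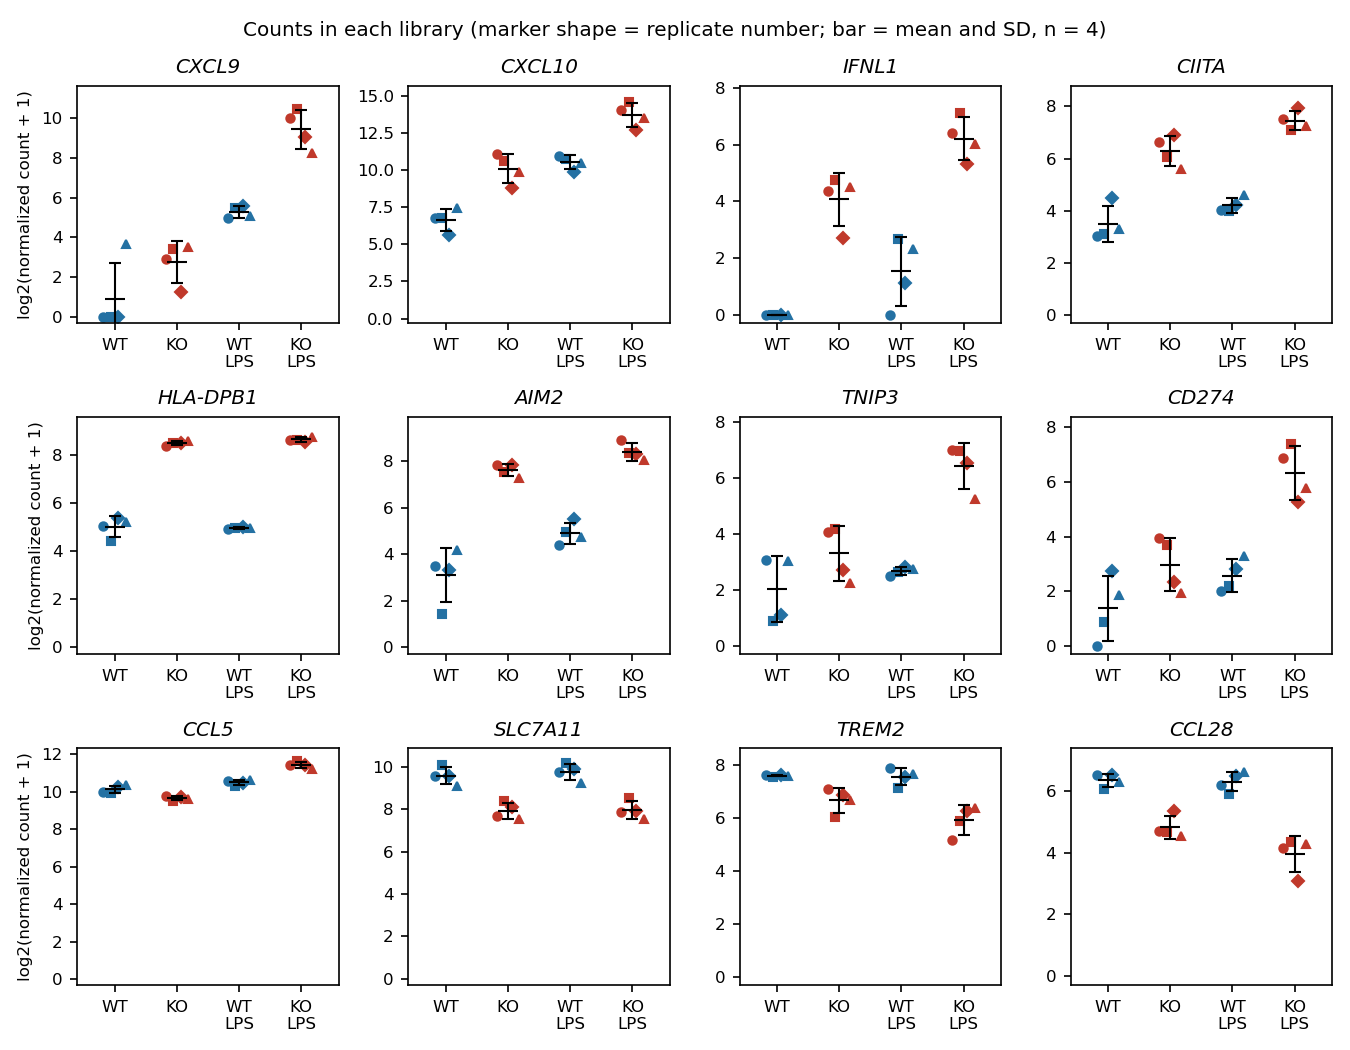
Log2(normalised read count + 1) (vertical axis) of 12 genes in each library of the WT and KO lines without and with LPS, with blue for WT, red for KO, marker shape for the replicate number and bars for the mean and SD of 4 libraries. The KO libraries lie above the WT libraries after LPS for CXCL9, TNIP3 and CD274, HLA-DPB1 differs by 3.70 with and 3.48 without LPS, and SLC7A11, TREM2 and CCL28 are lower in KO.

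All 3 ligands of the receptor CXCR3, which draw activated T cells, rose. CXCL10 (ENSG00000169245, chromosome 4, 76021118 to 76023497, minus strand) had counts of 2026, 1745, 941 and 1422 in WT and of 17342, 25162, 6523 and 11635 in KO (log2 fold change 3.19, SE 0.43, adjusted p = 8.49e-06). The lowest KO library was above the highest WT library. CXCL9 (ENSG00000138755, chromosome 4, 76001275 to 76007509, minus strand) had counts of 30.4, 43.1, 46.4 and 32.1 in WT and of 1020.0, 1381, 516 and 303 in KO (log2 fold change 4.16, SE 0.69, adjusted p = 1.25e-04). Here the KO libraries were spread more widely than the WT libraries and did not overlap them. Without LPS, CXCL9 lay between 0 and 11.5 in all 8 libraries of both lines and was not called (log2 fold change 1.85, adjusted p = 0.15). The interaction of genotype and LPS was 2.31 and not called either (adjusted p = 1).

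Of 7 tested CC chemokines, 3 rose and 1 fell, and the median was 1.98. CCL3, which draws monocytes (ENSG00000277632, chromosome 17, 36088256 to 36090169, minus strand), had counts of 359.7, 339, 663 and 381 in WT and of 3524, 3640.3, 4410.1 and 2909.8 in KO (log2 fold change 3.09, SE 0.43, adjusted p = 1.37e-05). Its near-identical neighbour CCL3L1 had 413, 421, 683 and 470.1 and 4123, 5311, 5556 and 3564 (log2 fold change 3.23, SE 0.28, adjusted p = 2.89e-09), and reads of these copies may have been assigned to either. CCL4 had 196, 232, 165 and 178 in WT and 2113, 1925, 909 and 1418 in KO (log2 fold change 2.98, SE 0.53, adjusted p = 3.54e-04). None of the groups overlapped for these 3 chemokines. CCL2, the main attractant of monocytes, differed more between replicate numbers than between genotypes, with counts of 545, 640.2, 51.1 and 281 in WT and of 2661, 3043, 155 and 993 in KO. Replicate 3 was lowest in both lines, and KO was above WT in each of the 4 pairs. The unblocked fit did not call it (log2 fold change 1.98, SE 1.25, adjusted p = 0.479), and the fit with the replicate block did (adjusted p = 4.73e-07).

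CCL5, which attracts T cells and monocytes, was the 1 gene called in the test of the KO effect with LPS against that without it. Without LPS its counts were 1029, 984, 1221 and 1316 in WT and 876, 736, 848 and 778 in KO, so that all 4 KO libraries were below all WT libraries (log2 fold change -0.48, adjusted p = 0.0434, not called). After LPS the counts were 1560.1, 1299, 1440.0 and 1564 in WT and 2775, 3190.4, 2742 and 2379 in KO, and all 4 KO libraries were above (log2 fold change 0.92, SE 0.14, adjusted p = 4.94e-05). The interaction was 1.40 (SE 0.20, adjusted p = 0.00158).

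Of 13 tested cytokine genes, 5 rose and 1 fell. IL1B, the inflammasome cytokine, had counts of 212, 237, 61.8 and 124 in WT and of 617, 835, 323 and 505 in KO (log2 fold change 1.93, SE 0.38, adjusted p = 0.00108). The groups did not overlap, and replicate 3 was lowest in both. IL1RN, which encodes the antagonist of the same receptor, rose to a similar size, with 484, 468, 844 and 452 in WT and 2399, 1999.9, 2844 and 1451 in KO (log2 fold change 1.96, SE 0.39, adjusted p = 0.00136). TNFSF10 (TRAIL), a death ligand induced by interferon, rose by 2.53 (adjusted p = 6.30e-10), TNFSF15 by 3.67 (adjusted p = 0.00359) and TNF by 1.06 (adjusted p = 1.92e-05). The call of TNFSF15 was lost in 4 of 8 (adjusted p up to 0.0203) cases when 1 library was left out, and that of IL1B with only the groups compared in the fit (adjusted p = 0.0267). TNFSF14 (LIGHT), a ligand that costimulates T cells, was the member that fell, with counts of 622, 476, 542 and 622 in WT and of 183, 193, 305 and 375 in KO (log2 fold change -1.15, SE 0.23, adjusted p = 0.00113). Its call was lost without KO LPS replicate 1 (adjusted p = 0.0101) and with only the groups compared in the fit (adjusted p = 0.0202).

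Several cytokines stayed below the count minimum and were not tested. IL27, a subunit of interleukin 27, had counts of 0, 1.76, 2.38 and 4.82 in WT and of 54.1, 45.8, 21.3 and 15.9 in KO. EBI3, which encodes its partner subunit, had 7.59, 6.16, 0 and 7.23 and 46.9, 88.1, 15 and 7.94, and for this pair the lowest KO library was above the highest WT library. IL6, a target of NF-kB, was at 0, 0, 0 and 0 in WT and at 2.41, 15.7, 1.25 and 0 in KO, so that 5 of the 8 libraries listed no read. The minimum applied to the mean over all 32 libraries, most of which held few reads of these genes.

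NF-kB turns on its own inhibitors, which limit the response to LPS. Of 20 tested NF-kB subunits and feedback genes, 4 rose and none fell, and 11 were higher with the block. TNIP3, an LPS-induced partner of the NF-kB inhibitor A20, had counts of 4.55, 5.28, 5.95 and 5.63 in WT and of 128, 123, 90.2 and 36.5 in KO (log2 fold change 3.76, SE 0.68, adjusted p = 3.98e-04). Its unstimulated difference was 1.28 (adjusted p = 0.414), and the interaction was 2.48 (adjusted p = 1, not called). BIRC3, a ubiquitin ligase that restrains cell death, rose by 1.34 (adjusted p = 2.33e-04), BCL3 by 0.66 (adjusted p = 0.0068) and CYLD, a deubiquitinase, by 0.51 (adjusted p = 0.00943). Leaving out 1 library at a time ended the call of CYLD in 7 of 8 (adjusted p up to 0.0507) and of BCL3 in 6 of 8 (adjusted p up to 0.0322) cases. TNFAIP3, which encodes A20, had 860.5, 996, 1158 and 907 and 2163, 1731, 1940.0 and 1564 and was called with the block and not without it (adjusted p = 0.113 without it and 8.44e-05 with it).

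The signal terminators had a median difference of 1.02 after LPS and of 0.11 without it, and LPS raised them by a median of 0.08 in WT and of 0.78 in KO. Of 16 tested, 2 rose and none fell, and 7 were higher with the block. ZC3H12A (regnase-1), a nuclease of cytokine mRNAs, had counts of 956, 951, 891 and 971 in WT and of 1958, 2030.0, 1851 and 2119.6 in KO (log2 fold change 1.08, SE 0.22, adjusted p = 0.00169). DUSP5, a phosphatase of ERK, rose by 1.26 (adjusted p = 0.00858), a call that was lost in 5 of 8 (adjusted p up to 0.0568) cases when 1 library was left out. SOCS3, which blocks cytokine receptors, had counts of 48.6, 72.1, 1.19 and 34.6 in WT and of 349, 621, 17.5 and 170.0 in KO. Replicate 3 was low in both lines, KO was above WT in every pair, and the gene was called with the block and not without it (adjusted p = 0.264 without it and 2.58e-06 with it). The same held for SOCS1, at 25.8, 14.9, 5.95 and 6.43 and 208, 322, 20.1 and 82.6 (adjusted p = 0.0708 and 1.03e-04).

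Of 18 tested AP-1 and immediate early factors, 4 rose and 1 fell. ATF3, a stress-induced repressor, had counts of 80.4, 157, 91.6 and 138 in WT and of 329.6, 369, 284 and 339 in KO (log2 fold change 1.54, SE 0.21, adjusted p = 1.13e-05), EGR1 rose by 1.41 (adjusted p = 0.00531), FOSL2 by 1.09 (adjusted p = 0.00435) and JUN by 0.77 (adjusted p = 0.0039). BATF3, a factor of dendritic cell development, fell, with counts of 117, 200.5, 296 and 194 in WT and of 75.8, 80.8, 128 and 88.9 in KO (log2 fold change -1.06, SE 0.23, adjusted p = 0.0033). With 1 library left out at a time the call was lost in 6 of 8 (adjusted p up to 0.0395) cases for EGR1, in 6 of 8 (adjusted p up to 0.0279) for BATF3 and in 5 of 8 (adjusted p up to 0.0375) for FOSL2. Among inducible enzymes, GCH1, which starts tetrahydrobiopterin synthesis, had 42.5, 60.7, 32.1 and 34.6 and 304, 323, 92.7 and 174 (log2 fold change 2.25, SE 0.35, adjusted p = 6.78e-05). Its unstimulated difference was 0.72 (adjusted p = 0.358), and the interaction was 1.53 (adjusted p = 1, not called). NAMPT, the rate-limiting enzyme of NAD salvage, rose by 1.53 (adjusted p = 0.00329), a call lost without WT LPS replicate 1, KO LPS replicate 1 or KO LPS replicate 2 (adjusted p up to 0.0214). ALOX5AP, the protein that presents arachidonic acid for leukotriene synthesis, went the other way, with counts of 1043, 1041, 666 and 889.7 in WT and of 486, 393, 188 and 289.9 in KO (log2 fold change -1.48, SE 0.28, adjusted p = 7.80e-04), and was not called with only the groups compared in the fit (adjusted p = 0.0131).

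Genes of antigen presentation by MHC class II, which shows peptides to helper T cells, were higher in KO with and without LPS. Of 15 tested members 10 rose and none fell, with medians of 1.71 after LPS and 1.74 without it. LPS moved this list by a median of -0.01 in WT and of 0.04 in KO. HLA-DPB1, the beta chain of HLA-DP (ENSG00000223865, chromosome 6, 33075990 to 33089696, plus strand), had counts of 28.8, 29.9, 30.9 and 29.7 in WT and of 398, 398, 375 and 436 in KO (log2 fold change 3.70, SE 0.25, adjusted p = 3.18e-11). The gap between the groups was many times their spread. HLA-DPA1, the alpha chain, had 39.5, 37.8, 40.4 and 45 and 431, 549, 480.0 and 494 (log2 fold change 3.55, SE 0.20, adjusted p = 7.03e-13). HLA-DQA1 was near the detection limit in WT, at 7.59, 7.03, 0 and 0, and at 102, 106, 75.2 and 74.7 in KO (log2 fold change 4.95, SE 0.70, adjusted p = 1.37e-05). HLA genes resemble each other closely, and reads may have been shared among them.

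CIITA, the master activator of MHC class II transcription (ENSG00000179583, chromosome 16, 10866222 to 10943021, plus strand), moved with these genes. Its counts were 15.2, 14.9, 17.8 and 23.3 in WT and 180.4, 135, 242 and 152 in KO, without overlap (log2 fold change 3.23, SE 0.43, adjusted p = 6.68e-06), and its unstimulated difference was 2.80 (adjusted p = 6.20e-05). CD74, the invariant chain that guards the peptide groove, had counts of 1935, 1771, 2602 and 2077 in WT and of 5338, 6143, 8046 and 6627 in KO (log2 fold change 1.64, SE 0.19, adjusted p = 8.63e-07). HLA-DMA and HLA-DMB, which load the peptide, rose by 1.63 (adjusted p = 1.43e-04) and 3.23 (adjusted p = 2.00e-04).

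Presentation by MHC class I was called for fewer members. Of 16 tested 3 rose and none fell, the median was 0.50, and 8 were higher with the block. TAP1, the transporter that brings peptides into the endoplasmic reticulum, had counts of 1114, 980.5, 737 and 918 in WT and of 3162, 3427, 2028 and 2559.6 in KO (log2 fold change 1.56, SE 0.29, adjusted p = 6.62e-04). HLA-F rose by 2.41 (adjusted p = 1.43e-04) and HLA-E by 0.98 (adjusted p = 6.76e-08). B2M, the light chain of class I molecules, was not called (0.78, adjusted p = 0.0175) but was called with the block (adjusted p = 6.73e-04), without WT LPS replicate 1, without KO LPS replicate 3 and without the first S455A LPS library. PSMB9, a catalytic subunit of the immunoproteasome, had 1448, 1329, 1512 and 1462 and 3236, 3125, 3142 and 3095 (log2 fold change 1.13, SE 0.20, adjusted p = 2.46e-04) and PSME1, an activator subunit, rose by 0.58 (adjusted p = 6.86e-04). None of the 19 tested subunits of the constitutive proteasome was called by limma (median 0.02 on the joint scale and -0.08 on the deposited one, 2 with an unadjusted p below 0.05), and 2 were higher and 1 lower with the block.

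CD274, the checkpoint ligand PD-L1 (ENSG00000120217, chromosome 9, 5450503 to 5470566, plus strand), was the 1 called member of 9 costimulatory and checkpoint ligands. It had counts of 3.04, 3.52, 5.95 and 8.84 in WT and of 115, 169, 37.6 and 54 in KO (log2 fold change 3.76, SE 0.73, adjusted p = 9.38e-04). All KO libraries were above all WT libraries, and without LPS the difference was 1.60 (adjusted p = 0.299), with an interaction of 2.16 (adjusted p = 1, not called). CD80, which costimulates T cells, was below the count minimum, with 9.11, 2.64, 13.1 and 1.61 in WT and 48.1, 16.9, 31.3 and 15.9 in KO. CD40, a receptor for T cell help, had 170.0, 214, 78.5 and 159.9 and 444, 532, 224 and 311 and was called with the block and not without it (adjusted p = 0.176 without it and 3.32e-05 with it).

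Genes of the monocyte programme moved in both directions. Of 18 monocyte and macrophage receptors 1 rose and 2 fell, and the median was -0.08. SIGLEC1, a sialic acid receptor induced by interferon, rose by 1.72 (adjusted p = 3.92e-04). TREM2, a lipid receptor of macrophages (ENSG00000095970, chromosome 6, 41158506 to 41163186, minus strand), had counts of 239.8, 142, 188 and 201 in WT and of 34.9, 59.1, 76.4 and 83.4 in KO (log2 fold change -1.63, SE 0.25, adjusted p = 4.39e-05), and the highest KO library was below the lowest WT library. CD33, an inhibitory receptor, fell by less (log2 fold change -0.73, SE 0.16, adjusted p = 0.00474). Among granule proteins LYZ (lysozyme) had counts of 5806, 6176, 3272 and 3651 in WT and of 21154, 33699.7, 15302 and 22303 in KO (log2 fold change 2.29, SE 0.34, adjusted p = 2.84e-05), and MNDA, a nuclear protein of myeloid cells, rose by 1.80 (adjusted p = 1.35e-07). FCN1, a ficolin of monocytes, had 30.4, 14.9, 32.1 and 34.6 and 3.61, 0, 0 and 3.97 (log2 fold change -3.66, SE 0.81, adjusted p = 0.00386), so that 2 KO libraries listed no read. Of the complement genes, C2 and SERPING1 rose by 1.31 (adjusted p = 0.00635) and 3.00 (adjusted p = 5.24e-04), while CFD (factor D) fell, from 1685, 1395, 1083 and 1300.3 in WT to 565, 585, 501 and 635 in KO (log2 fold change -1.24, SE 0.14, adjusted p = 6.65e-07). The calls of C2, CD33 and FCN1 were lost in 7 of 8 (adjusted p up to 0.0249), in 6 of 8 (adjusted p up to 0.0254) and in 5 of 8 (adjusted p up to 0.0231) cases when 1 library was left out.

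SLC38A1 and SLC7A11 were the amino acid transporters among the 12 named genes with the largest falls. SLC38A1, a glutamine transporter (ENSG00000111371, chromosome 12, 46183063 to 46270017, minus strand), had counts of 616, 771, 476 and 614 in WT and of 231, 165, 99 and 96.9 in KO (log2 fold change -2.13, SE 0.25, adjusted p = 7.93e-07). SLC7A11, the cystine-glutamate exchanger that feeds glutathione synthesis (ENSG00000151012, chromosome 4, 138164097 to 138242349, minus strand), had 864, 1148, 952 and 611 and 231, 376, 242 and 187 (log2 fold change -1.80, SE 0.32, adjusted p = 3.54e-04). Neither pair of groups overlapped, which the rule for naming these 12 genes required. Both genes were also called lower without LPS (-2.70 and -1.67). In the fit without the block, few other members of the lists that hold them were called. Of 21 ATF4 amino acid stress genes SLC38A1 was the 1 that fell and none rose (median -0.36). In this list 16 members had lower means in KO, 9 had an unadjusted p below 0.05 (limma), and with the block 5 were lower and 2 higher. Of 16 aldo-keto reductases and NRF2 targets, 9 had an unadjusted p below 0.05 and with the block 4 were higher and 3 lower. Without the block 2 of the 16 fell and 1 rose. The riser was NFE2L2, which encodes NRF2 itself (0.74, adjusted p = 0.00157), a call lost without WT LPS replicate 1 (adjusted p = 0.0107). MS4A6A, a membrane protein of monocytes, had counts of 622, 659.5, 342 and 494 in WT and of 166, 149.6, 95.2 and 115 in KO (log2 fold change -1.99, SE 0.34, adjusted p = 1.68e-04). MSI2, an RNA-binding protein of blood progenitors, fell by 1.77 on the log2 scale (adjusted p = 4.15e-05), and the peptidase gene TRHDE by 2.94 (adjusted p = 2.89e-05). Non-coding transcripts among the largest falls were PCED1B-AS1, with 239.8, 183, 243 and 251 in WT and 37.3, 24.1, 68.9 and 47.7 in KO (log2 fold change -2.42, SE 0.27, adjusted p = 5.08e-07), and FOXP4-AS1 (log2 fold change -1.98, SE 0.41, adjusted p = 0.00185), whose call was lost without KO LPS replicate 1 or WT LPS replicate 3 (adjusted p up to 0.0168). Antisense transcripts can share reads with the gene opposite them.

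In the lists of pathways that ACLY feeds or drains, limma called no gene without the replicate block. In acetyl-CoA and citrate metabolism 26 genes were tested, the median was -0.04, and 1 gene had an unadjusted p below 0.05. For fatty acid synthesis and desaturation these values were 22, -0.26 and 6, and for fatty acid oxidation 20, -0.11 and 2. Glycolysis and the pentose phosphate path had 27 tested genes, a median of -0.02 and 2 with an unadjusted p below 0.05. The 47 nuclear-encoded subunits of the respiratory chain had a median of -0.11 (5 below 0.05), and the 31 histone acetyltransferases, deacetylases and readers had 16 lower and 15 higher means (6 below 0.05). In sterol synthesis and its control 24 genes were tested, the median was 0.51 and 7 were below 0.05, and among 10 LXR targets and genes of cholesterol efflux the median was -0.17 with 3 below 0.05. ACSS2, which makes acetyl-CoA from acetate, had a log2 fold change of 0.53 (adjusted p = 0.401) and FASN (fatty acid synthase) of -0.26 (adjusted p = 0.662). ABCA1, which exports cholesterol, had -1.07 (adjusted p = 0.47), and ABCG1 stayed below the count minimum, at 6.07, 4.4, 0 and 2.41 in WT and 6.01, 0, 0 and 2.38 in KO. With the block 1 gene of fatty acid synthesis was higher and 2 lower, 1 of fatty acid oxidation lower, 1 of glycolysis lower, 2 of the respiratory chain higher and 1 lower, and 1 of the histone enzymes and readers higher and 2 lower, while acetyl-CoA metabolism and LXR targets had none. In the sterol list 21 of 24 members had higher means in KO, and 6 were called with the block. Among these were IDI1, an isomerase early in the path (adjusted p = 7.50e-05), FDFT1 (0.00659), MSMO1 (0.00815), INSIG1 (0.00123) and STARD4 (0.00103).

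Other lists held few called genes. Of 22 tested apoptosis regulators 3 rose and none fell (median 0.52), led by PMAIP1 (NOXA), a promoter of cell death, with counts of 602, 702, 593 and 571 in WT and of 1650.3, 1721, 1456 and 1351 in KO (log2 fold change 1.32, SE 0.18, adjusted p = 1.24e-05). Of 7 tested S100 proteins 1 rose (median 0.62), and of 3 APOBEC3 enzymes, which edit viral DNA, APOBEC3G rose by 1.19 (adjusted p = 0.00631), a call lost in 5 of 8 (adjusted p up to 0.0473) cases when 1 library was left out. APOBEC3A was below the count minimum, with 3.04, 5.28, 0 and 0 in WT and 15.6, 18.1, 37.6 and 23 in KO, and its groups did not overlap. Of 23 tested lysosomal genes 2 rose (median 0.31), NPC2, which carries cholesterol out of lysosomes (1.00, adjusted p = 7.80e-04), and LAMP2, a membrane protein (0.62, adjusted p = 4.17e-05, and 0.021 with only the groups compared in the fit). The integrin gene ITGAL was the 1 riser of 17 integrins and matrix enzymes (1.02, adjusted p = 5.23e-05). No gene of the unfolded protein response was called by limma among 16 tested (median 0.28, 3 with an unadjusted p below 0.05), and 3 were higher with the block. Of the neutrophil-attracting CXC chemokines CXCL8 (interleukin 8) alone reached the count minimum, with 16.7, 22.9, 9.51 and 11.3 in WT and 34.9, 98.9, 51.4 and 58.8 in KO, and it was called with the block and not without it (adjusted p = 0.0969 without it and 9.65e-04 with it).

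Ribosomal protein genes were lower in KO by a small amount across the list. Of 54 tested, 53 had lower means in KO, the median was -0.39, and 1 fell, with 23 called lower with the block. That gene was RPS14, at 29537, 28319, 36066 and 30664 in WT and 15479, 19394, 26007 and 22016 in KO (log2 fold change -0.61, SE 0.15, adjusted p = 0.00809), and its call was lost in 7 of 8 (adjusted p up to 0.0621) cases when 1 library was left out. The 13 mitochondrially encoded transcripts had higher means in KO LPS without exception, with a median of 0.59, but limma called none (4 with an unadjusted p below 0.05), and with the block it called 8. Without LPS their median was -0.10. None of the 38 tested cell cycle genes was called by limma (median -0.16, 2 with an unadjusted p below 0.05), and 3 were lower with the block. The cell cycle inhibitor CDKN1A (p21) rose by 0.86 (adjusted p = 0.00901), a call lost in 7 of 8 (adjusted p up to 0.0442) cases when 1 library was left out, and by less than without LPS (1.44, adjusted p = 2.39e-05), and the difference of these differences was not called (-0.58, adjusted p = 1).

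A stretch at an end of chromosome 5 held many of the genes that fell. It was picked after the values were seen and is described without a test. Of 97 tested genes that start before position 50 Mb of chromosome 5 in GRCh38, which takes in the short arm, 28 fell (28.9%) and none rose. They made up 17% of all genes that fell. The last of the 97 starts at 44826076 and the next tested gene at 50396192. Of the 97 genes 89 had lower means in KO (91.8%, against 51% of all genes tested). In 56 the 4 KO libraries were all below the 4 WT libraries, as they were in 7.21% of all genes tested. The median log2 fold change was -0.85. Among the 461 tested genes on the rest of chromosome 5, 8 rose and 7 fell (1.52%), and the median was 0.03. On the 22 other chromosomes the medians ran from -0.11 to 0.08, and the share of genes that fell from 0 to 1.77%.

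The step was present in every KO and H760A library. Measured as the median over the 97 genes relative to the WT LPS mean on the log2 scale, it lay between -0.98 and -0.80 in the 4 KO LPS libraries and between -0.96 and -0.74 in the 4 unstimulated KO libraries. The H760A libraries lay between -0.95 and -0.90 after LPS and between -1.03 and -0.90 without it. Neither the WT libraries (-0.05 to 0.06) nor the S455A libraries (-0.18 to 0.06) overlapped these ranges, with or without LPS. Gene copy number was not measured. With or without these 97 genes the count of genes that rose was 265, and the count that fell was 165 with them and 137 without.

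**Figure D4:**
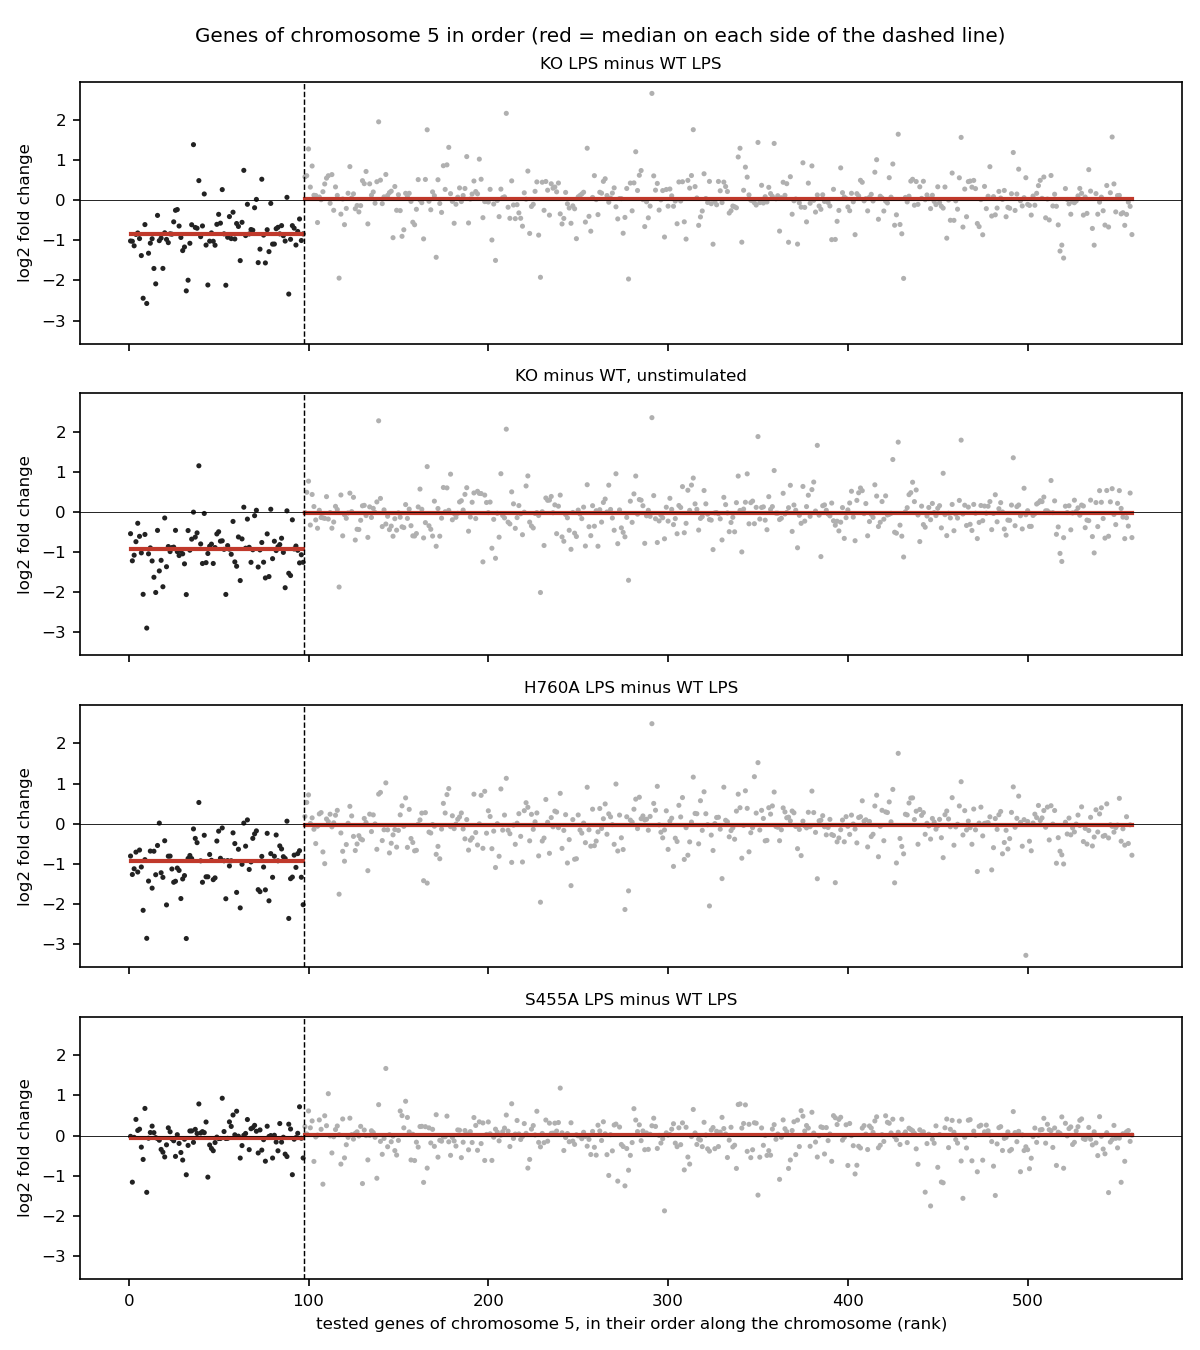
Log2 fold change (vertical axis) of the tested genes of chromosome 5 in their order along the chromosome (horizontal axis, rank) for KO LPS, unstimulated KO, H760A LPS and S455A LPS, each against WT in the same state; the dashed line stands after the 97th gene and red bars are medians on each side. The median left of the line is -0.85, -0.93 and -0.92 in the first 3 panels and -0.05 for S455A, and right of it lies near 0 in all 4.

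Named genes with large falls lay in this stretch. RAI14, an actin-binding protein (ENSG00000039560, chromosome 5, 34656328 to 34832612, plus strand), had counts of 337, 369, 434 and 377 in WT and of 108, 67.5, 94 and 80.2 in KO (log2 fold change -2.12, SE 0.19, adjusted p = 1.02e-08). NKD2, an inhibitor of Wnt signalling, had 498, 486, 828 and 604 and 107, 119, 208 and 137 (log2 fold change -2.08, SE 0.38, adjusted p = 4.68e-04). CCL28, a mucosal chemokine and the 1 CC chemokine that fell, had 72.8, 58.9, 89.2 and 96.4 and 16.8, 19.3, 7.52 and 18.3 (log2 fold change -2.34, SE 0.37, adjusted p = 8.05e-05). None of the groups overlapped. DAB2, an endocytic adaptor, had a log2 fold change of -1.56 (adjusted p = 1.34e-05), OXCT1, which lets cells use ketone bodies, of -1.28 (adjusted p = 1.46e-04), DROSHA, the nuclease that starts microRNA processing, of -1.02 (adjusted p = 2.15e-05) and NNT, a mitochondrial source of NADPH, of -0.78 (adjusted p = 1.47e-04). These 4 were chosen after their values were seen. GAPT and RPS14, which also fell, are on chromosome 5 beyond the stretch.

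H760A cells gave a comparison in which an ACLY protein was present but inactive. It shares the 4 WT LPS libraries with the KO comparison, so the values are given side by side only. Against WT LPS, 250 genes were called in H760A LPS (2.02%), 144 higher (1.16%) and 106 lower (0.854%). List medians for KO and H760A were 1.71 and 1.75 for MHC class II, 1.62 and 0.82 for antiviral effectors, 3.50 and 1.86 for the CXCR3 ligands and 1.02 and 0.00 for the signal terminators. CIITA was at 3.23 in KO and 3.14 in H760A (adjusted p = 2.27e-05) and HLA-DPB1 at 3.70 and 3.40 (adjusted p = 1.64e-10). AIM2 was at 3.50 and 2.21 (adjusted p = 0.00112), and CXCL10 at 3.19 and 1.34 (adjusted p = 0.0828). Tested directly, KO LPS and H760A LPS libraries differed in 1 called gene (0.00806%). It was IFI44L, an interferon-induced antiviral gene that was higher in KO (limma log2 fold change 1.34, adjusted p = 0.00528). No gene was called with the replicate block, with only these groups in the fit or without the count minimum. Of the 12406 genes tested, 1307 had an unadjusted p below 0.05 in this limma contrast. The few calls thus do not show that the lines were alike.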

How the data were processed

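Total RNA of the cells was sequenced with the QuantSeq 3′ mRNA kit, which reads 1 fragment near the 3′ end of each transcript. The authors trimmed reads with Bbduk, aligned them to GRCh38 with STAR, counted them with HTSeq-count and deposited normalised read counts made with DESeq2 (versions are not given in the sources used here). Each line had been scaled on its own, so the deposited values of different lines were not on a common scale. In all libraries 100% of the values were whole multiples of 1 read within 0.05 reads. Reads were recovered from these multiples and scaled jointly over all 32 libraries by the median of ratios over the genes tested. Spike-in rows (92) were left out of all steps.

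Log2(normalised count + 1) was fitted with limma 3.58.1 in R 4.3.3, with the means of the 8 groups of the series and a spread shared by all of them, an intensity trend and Benjamini-Hochberg adjustment over 12406 genes. All log2 fold changes are on this scale and understate the change of low genes. Testing steps were run on simulated data. Same-numbered KO and WT libraries deviated from their group means together, with correlations of 0.199, 0.520, 0.723 and 0.179 after LPS. Without LPS these were 0.336, 0.480, 0.682 and 0.334. KO LPS replicate 1 correlated more with WT LPS replicate 2 (0.339) than with its own number. For KO LPS replicate 4 the correlation with WT LPS replicate 1 was nearly as high (0.177). For all other KO libraries the same-numbered WT library gave the highest correlation by a wider margin. Between the lines, replicate 3 correlated negatively with every other number in both states. The numbers thus set replicate 3 apart more clearly than they paired the others. A fit with the number as a block was the alternative, and its calls rest on this pairing. That fit used only the groups compared.

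Positions are from GENCODE 44 (GRCh38). Named genes were the 12 largest rises and falls with a mean count of at least 50 and no overlap, up to 4 called members of each list and 2 against its median, ACLY, B2M and the genes of the study's Q-PCR panels, and genes called in the interaction or against H760A. Members that were not called are named with values only. Some genes that meet these rules are not reported here. The members and lists were chosen with earlier results of these data known. The labels and a methods paragraph of the study differ on the LPS concentration, and that of the labels is given. Depth was 6504099 to 13002790 reads per library compared.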

Additional observations from a re-analysis of the deposited data

Results flagged for a closer look

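The KO difference of CCL5 depended on LPS, with an interaction of 1.40 on the log2 scale (limma, adjusted p = 0.00158). All 4 KO libraries were below the WT libraries without LPS and above them with it.

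In 8 of 198 groups of 4 libraries, over 99 named genes, 1 library stood apart from the other 3 by more than Dixon's 95% limit, which chance passes in about 1 group in 20 (5 of the 8 were WT LPS replicate 3). That replicate was high for TNFSF10, at 508.9 against 413.3 to 429.2, and for IL1RN, at 844.2 against 452.5 to 484.1. It was also high for CCL3, at 663.5 against 339.4 to 380.9, and for TLR7, at 76.1 against 26.5 to 33.4, and low for MNDA, at 637.3 against 917.0 to 962.0. WT LPS replicate 2 was low for CXCL11, at 207.5 against 227.6 to 231.5, and for PCED1B-AS1, at 182.9 against 239.8 to 250.7. KO LPS replicate 2 was high for AKR1C2, an aldo-keto reductase, at 9.65 against 2.38 to 2.51.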

How the results depend on the processing

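The count of genes called between KO and WT after LPS was 430 and lay between 322 and 434 when each library was left out in turn (322 without KO LPS replicate 1), at 475 on the deposited scale, at 300 with only the 2 groups compared in the fit and at 628 without the first S455A LPS library, a setting chosen after seeing the data. With the replicate block it was 1333. Without LPS the count of 360 was 179 with only the groups compared, 723 with the replicate block and 276 to 312 with a library left out. The interaction gave 1 gene under every setting run. Between KO and H760A after LPS the 1 called gene became 0 without the count minimum, 0 with only the groups compared, 0 with the replicate block, 60 on the deposited scale (2 higher, 58 lower, with the median gene at -0.24), 17 without the first S455A LPS library and 0 to 3 with a library left out. Of the genes named, 93 were called, and all 93 were called with the replicate block. With 1 library left out at a time, 20 of the 93 lost their call at least once and 14 in at least 5 of 8 cases (UBE2L6, C2, CASP10, CDKN1A, CYLD, RPS14, BATF3, BCL3, CD33, EGR1, APOBEC3G, DUSP5, FCN1 and FOSL2). With only the groups compared in the fit 19 lost their call, 12 of these 14 (all but UBE2L6 and C2) and TNFSF14, FOXP4-AS1, ALOX5AP, CFLAR, IL1B, LAMP2 and VIT. Without the count minimum 11 lost their call, on the deposited scale 8, on the upper-quartile scale 4 and with a pseudocount of 0.5 only 1. The cause of these changes was not tested. TMM scaling and the count tests of edgeR and DESeq2 were not run on the recovered reads, since the decimal commas of the deposited tables kept these from being checked as counts. Low counts limit IFNL1, FCN1 and HLA-DQA1, which were at or near 0 in libraries of 1 line, and the interferon beta and interleukin 6 genes, which could not be tested. They also limit CD274, TNIP3 and TNFSF15, which were low in WT LPS libraries (mean counts of 5.35 for TNIP3 and 7.43 for TNFSF15).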

Other observations

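DCN (decorin), a fibroblast marker below the count minimum, had normalised read counts of 19.7, 31.7, 4.76 and 23.3 in WT LPS replicates 1 to 4 and of 6.01, 2.41, 0 and 0.794 in KO LPS replicates 1 to 4. CSF1, the growth factor of macrophages, had 10.6, 10.6, 7.13 and 8.04 in WT and 42.1, 61.5, 7.52 and 20.6 in KO and was not tested. The tryptophan-degrading enzyme IDO1 had 7.59, 3.52, 0 and 3.21 and 20.4, 32.6, 0 and 4.77. IRF8, a factor of the monocyte lineage, had 1299, 1385, 129.6 and 657 in WT and 3517, 3453, 264 and 1623 in KO, with replicate 3 lowest in both lines and KO above WT in each pair, and it was called with the replicate block and not in the fit without it (adjusted p = 0.476 without it and 2.09e-06 with it, limma).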
